A study of Mus musculus with 153 samples.

Results

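The genes described here are the mouse MHC class I heavy chains H2-K1 and H2-D1, their partner B2m, the peptide-loading genes Tap1, Tap2 and Tapbp, the immunoproteasome subunits Psmb8 and Psmb9, and the regulators Irf1 and Nlrc5. They were chosen by name, with earlier results of these counts in view and from values of the same kind as those below, so their values are given as a description, with no p-values, and counts of members past a threshold support nothing by themselves. All 10 members are listed in all 6 count tables, among 22654 gene symbols common to the tables. The libraries hold polyA RNA of the dorsal hippocampus from mice of 3 genotypes, Camk2a.Cre/TRAPfl, Pvalb.Cre/TRAPfl and Sst.Cre/TRAPfl. Each pairs a Cre driver (of excitatory, parvalbumin or somatostatin neurons) with a floxed allele for TRAP, translating ribosome affinity purification, in which ribosomes carry a tag in the marked cells only and are captured by it together with the mRNA they are translating. Every mouse group, controls included, carries both alleles, and any cell in which the driver was ever active can carry the tag. The files hold 76 libraries of such purified RNA and 75 of the unpurified tissue lysate. The 3 treatments were the home cage, exposure to a new context with no shock (box) and conditioning by a shock in that context (shock), in sets labelled 15 and 60 min. Strain, age and sex are not given in the sources used here. The 151 libraries form 36 groups of 3 to 6, described as biological replicates.

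MHC class I molecules carry short peptides of the cell's own proteins to its surface, where T cells can read them. The proteasome cuts the peptides, the Tap1-Tap2 transporter moves them into the endoplasmic reticulum, Tapbp (tapasin) bridges the transporter to empty class I molecules, and a heavy chain such as H2-K or H2-D is stable at the surface only with B2m, beta-2 microglobulin. Under interferon the constitutive catalytic subunits Psmb5 and Psmb6 are replaced by Psmb8 and Psmb9 to form the immunoproteasome. Irf1 is a transcription factor induced by interferon gamma, and Nlrc5 is the class I transactivator. In the brain, microglia and endothelial cells are known as strong expressers of these genes, and class I molecules on neurons have been studied for roles in synapse pruning and plasticity.

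Of the members, 7 lie in or beside the MHC on chromosome 17. In the GRCm38 annotation H2-K1 spans chr17:33996017-34000347 (minus strand), Tapbp chr17:33915899-33929292, Psmb9 chr17:34181987-34187764 (minus), Tap1 chr17:34187553-34197225, Psmb8 chr17:34197721-34201454, Tap2 chr17:34203527-34216321 and H2-D1 chr17:35262730-35267499. Psmb9, Tap1, Psmb8 and Tap2 follow one another within 34335 bases, and the Tap1 and Psmb9 models overlap head to head by 212 bases on opposite strands. The library kit does not mark the strand, so reads there cannot be assigned to either gene. B2m lies at chr2:122147686-122153083, Irf1 at chr11:53770014-53778374 and Nlrc5 at chr8:94434356-94527272. H2-K1 and H2-D1 share much sequence with each other and with other class I genes, and the counting of reads that fit several genes is not stated, so the split between them is uncertain.

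Promoter windows of 4 members are shown because they carry letters through which class I genes are known to answer interferon and NF-kappaB. Each window holds 250 bases before and 50 after a RefSeq start site (GRCm38.p6), read 5′ to 3′ on the gene's own strand. Capitals mark 5 motifs searched on both strands, the interferon-stimulated response element, the interferon-gamma-activated site TTCNNNGAA, the NF-kappaB site of the class I enhancer, the CRE core TGACG and the NF-Y box CCAAT. No matches overlap one another. Each motif was searched as a fixed pattern of letters. Other forms of the interferon-stimulated response element were not searched, so lower-case letters in H2-K1, H2-D1 or Irf1 do not show that it is absent there.
H2-K1 (chr17:34000298-34000597, minus): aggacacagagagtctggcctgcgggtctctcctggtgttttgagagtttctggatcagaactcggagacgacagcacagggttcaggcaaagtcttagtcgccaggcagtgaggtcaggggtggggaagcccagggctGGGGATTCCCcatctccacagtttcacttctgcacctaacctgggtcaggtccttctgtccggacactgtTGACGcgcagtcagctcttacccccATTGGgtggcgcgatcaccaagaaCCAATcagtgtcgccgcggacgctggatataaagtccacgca
H2-D1 (chr17:35262844-35263143, plus): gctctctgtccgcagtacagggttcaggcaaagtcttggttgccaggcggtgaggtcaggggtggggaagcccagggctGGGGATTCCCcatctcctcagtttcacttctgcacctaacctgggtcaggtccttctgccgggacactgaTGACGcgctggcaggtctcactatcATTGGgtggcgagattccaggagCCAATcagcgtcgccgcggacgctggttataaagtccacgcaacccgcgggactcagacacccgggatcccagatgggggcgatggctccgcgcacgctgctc
B2m (chr2:122147437-122147736, plus): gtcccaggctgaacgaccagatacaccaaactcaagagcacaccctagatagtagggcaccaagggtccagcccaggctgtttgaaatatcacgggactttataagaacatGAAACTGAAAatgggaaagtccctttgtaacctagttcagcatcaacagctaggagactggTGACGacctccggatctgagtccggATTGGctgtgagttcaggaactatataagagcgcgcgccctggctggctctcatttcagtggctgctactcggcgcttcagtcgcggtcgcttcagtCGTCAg
Irf1 (chr11:53769764-53770063, plus): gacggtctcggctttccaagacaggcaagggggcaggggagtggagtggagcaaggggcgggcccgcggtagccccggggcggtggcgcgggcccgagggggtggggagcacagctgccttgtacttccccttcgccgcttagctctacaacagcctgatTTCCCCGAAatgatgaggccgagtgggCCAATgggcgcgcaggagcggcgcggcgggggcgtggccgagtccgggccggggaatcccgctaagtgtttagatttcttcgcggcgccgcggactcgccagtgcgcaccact
H2-K1 and H2-D1 share one layout, an NF-kappaB site followed 70 bases on by TGACG and a further 25 bases on by CCAAT. Its position depends on the start site used. The NF-kappaB site lies at -171 in H2-D1, at -111 in the H2-K1 window shown and at -125 from another H2-K1 start. B2m holds a match to the response element pattern at -139 and Irf1 an activated site at -90 in the window shown. The window of another Irf1 start (chr11:53770223-53770522, plus) holds 0 matches of each of the 5 motifs. Psmb8 also holds an activated site, at -97. The windows of Psmb9 and Tap1 overlap on opposite strands and hold the same TGACG, at -144 from the Psmb9 start and -86 from the Tap1 start. Entries were found for 8 of the 10 members, with none used for Tap2 and Nlrc5. Over all 32851 promoter windows of the table, 0.107% hold the NF-kappaB letters, 3.44% the response element, 8.30% the activated site, 20.8% TGACG and 37.4% CCAAT. A match describes letters only, and the lack of a match does not show that an element is absent.

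Total counts ran from 9043042 to 397228206 per library. Each purified fraction carried its driver's own class, since the marker genes of that class that rose against the lysate were 11 of 12 in both Camk2a sets, 7 of 7 in both Pvalb sets, and 6 of 7 and 7 of 7 in the Sst sets at 15 and 60 min (edgeR's quasi-likelihood test, adjusted p under 0.05). Some Sst libraries stand apart. In 7 purified Sst libraries the mean level of 12 microglia markers (among them Cx3cr1, P2ry12, Tmem119, Csf1r and C1qa) was above that of every lysate of the same set. They are shock replicates 2, 3, 4 and 5 of the 15 min set and home cage replicates 1 and 3 and box replicate 2 of the 60 min set. Their summed marker level was 5425 to 7491 CPM (counts per 1000000 of a library's total) at 15 min and 3940 to 5120 CPM at 60 min, against 708 to 1121 and 675 to 1037 CPM in the lysates. Of the purified libraries, 12, all Sst, also scored under 2 log2 units on the own-class score, the mean log2 level of the line's own neuron markers minus that of glial and vascular markers, set against the mean of the lysates. They are those 7, box replicate 2 at 15 min and the 4 shock libraries at 60 min, whose scores of -0.47 to 0.11 were near the lysate mean of 0. Beside many of the results of Sst libraries below, values without the microglia-rich or low-score libraries are given. Sst values with no such partner come from all libraries of the groups compared. Without the low-score libraries the 60 min set has no shock group, so where its shock comparisons have such a value it is without the microglia-rich ones. For fits with libraries left out, a block, a covariate or other size factors, the share of all genes called is not given. Counts of members or of other listed genes called in such fits are descriptions only.

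In the lysates B2m was the most abundant member and Nlrc5 the least. Per kilobase of exon, the 75 lysates held 159 ± 61.2 (SD) CPM per kb of B2m, 18.3 ± 6.02 of H2-D1, 12.03 ± 3.88 of Tapbp and 10.54 ± 3.75 of H2-K1. Tap2 (4.53 ± 2.15), Psmb8 (2.61 ± 0.871) and Irf1 (2.21 ± 0.709) came next, and Psmb9 (0.679 ± 0.299), Tap1 (0.678 ± 0.324) and Nlrc5 (0.0318 ± 0.0440) were lowest, in the same unit. Of neighbours in this order, B2m and H2-D1, H2-K1 and Tap2, Irf1 and Psmb9, and Tap1 and Nlrc5 were apart by more than their SDs, and the other neighbours were not. The constitutive subunits were far above their immunoproteasome counterparts, Psmb6 at 178 ± 44.1 and Psmb5 at 128 ± 38.5 CPM per kb. Lysates hold RNA of every cell of the tissue, so in these and in the purified libraries fewer cells of a type and less RNA per cell cannot be told apart.

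Purified RNA of Camk2a neurons held less of nearly every member than the lysate (the plot of purified against lysate). For H2-K1, the 60 min set's 12 purified libraries held 2.65, 4.92 and 11.9 CPM (lowest, median, highest) against 23.6, 30.1 and 57.3 CPM in the 12 lysates. In the 15 min set the 10 purified libraries held 1.26, 3.37 and 6.43 CPM against 12.2, 19.03 and 25.5 CPM. The groups did not overlap in either set, and the log2 fold change, purified minus lysate, was -2.22 ± 0.23 (SE) at 60 min and -2.03 ± 0.27 at 15 min. Psmb8, the immunoproteasome's chymotrypsin-like subunit, held 0.116, 1.57 and 3.82 CPM in the purified 60 min libraries against 6.72, 8.99 and 13.1 CPM in the lysates, again without overlap, a log2 difference of -2.18 ± 0.34. In the 15 min set it held 0.0689, 1.32 and 3.98 CPM against 3.85, 5.41 and 9.33 CPM, where the ranges just met, a difference of -1.41 ± 0.49. Tapbp stood apart in both sets, by -1.17 ± 0.17 at 60 min (9.68 to 26.5 against 29.3 to 67.1 CPM) and -0.80 ± 0.14 at 15 min (8.46 to 15.1 against 19.4 to 36.4 CPM).

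H2-D1, the second classical heavy chain, also stood apart at 60 min. It held 18.5, 24.7 and 29.7 CPM in purified 60 min libraries against 36.9, 50.9 and 85.3 CPM in lysates, with no overlap and a log2 difference of -0.81 ± 0.13, and differed by -0.55 ± 0.18 at 15 min, with overlap. B2m, which both heavy chains need, differed by -0.38 ± 0.14 (60 min) and -0.18 ± 0.21 (15 min), with 63.6, 88.1 and 136 CPM against 84.5, 128 and 197 CPM in the 60 min set. The Tap genes encode the partner chains of one transporter. Tap2 differed by -1.08 ± 0.32 and -1.55 ± 0.35 at 60 and 15 min and Tap1 by -1.21 ± 0.44 and 0.15 ± 0.49, with Camk2a 15 min shock replicate 4 alone at 8.40 CPM of Tap1 and the other 9 purified libraries at 0.134 to 2.74 CPM. Psmb9 differed by -1.12 ± 0.66 and -1.01 ± 0.53 and Irf1 by -0.82 ± 0.36 and -0.76 ± 0.32. Nlrc5 was at 0 counts in 11 of 12 purified 60 min libraries and 9 of 10 purified 15 min libraries, against 4 of 12 and 6 of 10 lysates, and its fitted 60 min difference of -4.49 ± 1.58 depends on the prior count. Of the members tested, 8 of 10 at 60 min and 5 of 9 at 15 min were past an adjusted p of 0.05, all lower, where 57.5% and 50.7% of all genes were, and nothing is read from that. The members' median was -1.15 and -0.80 against -0.26 and -0.14 over all genes. Without replicate 1 in the 15 min set 3 members were past it. The 12 microglia markers fell in both sets (12 of 12), their sum being 42.1 to 84.0 CPM in purified libraries of both sets against 523 to 902 CPM in lysates, and endothelial markers fell too (10 and 11 of 12 at 15 and 60 min), and their part in the result was not tested.

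**Figure D1:**
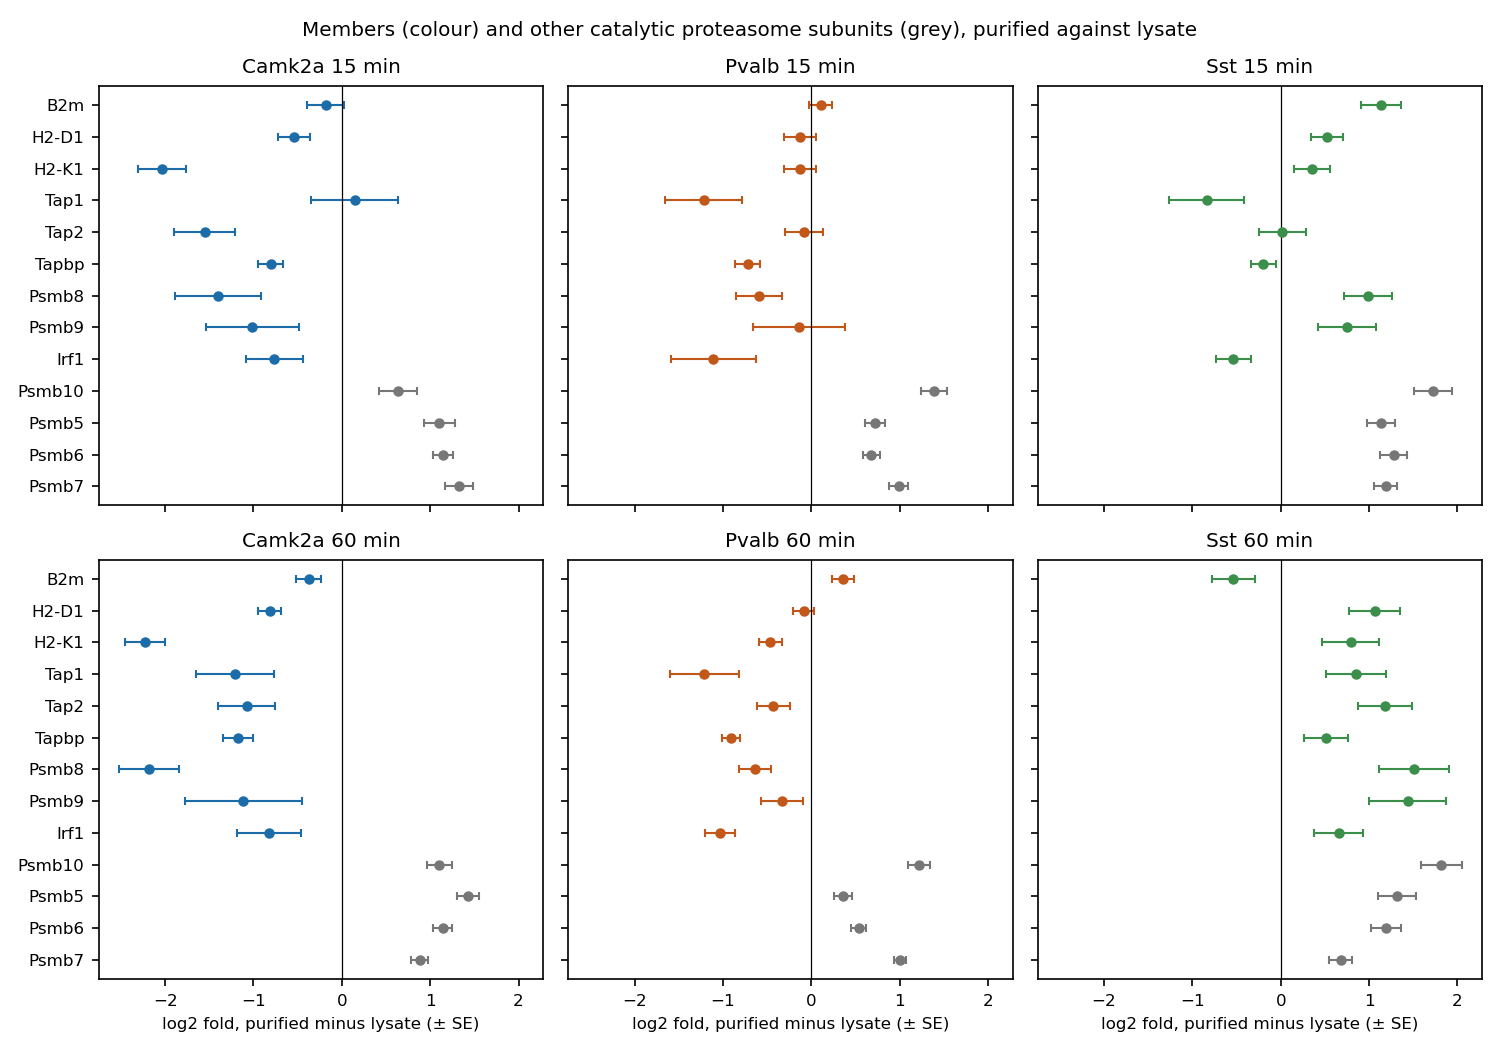
Log2 fold change, purified minus lysate, with its SE for 9 members (coloured) and 4 other catalytic subunits (grey) in each line and time set. H2-K1 lies at -2.03 and -2.22 in Camk2a and between -0.46 and 0.79 in the other lines, while Psmb5, Psmb6, Psmb7 and Psmb10 lie above 0 in every panel.

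In Pvalb neurons members differed from the lysate by at most 1.22 log2 units at either time. H2-K1 held 16.0, 22.9 and 41.1 CPM in the 16 purified 60 min libraries against 26.9, 35.4 and 76.2 CPM in the 16 lysates, a log2 difference of -0.46 ± 0.13, and -0.13 ± 0.18 at 15 min, with overlap in both. H2-D1 differed by -0.09 ± 0.12 and -0.12 ± 0.18 (60 and 15 min). B2m was slightly higher in the purified RNA at 60 min, by 0.36 ± 0.12 (67.5, 123 and 170 against 69.7, 109 and 187 CPM), and differed by 0.11 ± 0.13 at 15 min. These fold changes are scaled by TMM and CPM is not. In CPM the B2m means at 60 min were 119 purified and 113 lysate. At 15 min the CPM medians, 73.0 purified and 81.4 lysate, went the other way, so the direction depends on the scaling. The member that stood apart was Tapbp, the tapasin gene, with 16.8, 22.9 and 33.1 CPM against 34.2, 47.2 and 90.2 CPM at 60 min, no overlap and a difference of -0.91 ± 0.10. At 15 min Tapbp differed by -0.72 ± 0.14. Irf1 was lower by -1.03 ± 0.17 at 60 min (1.73, 3.61 and 6.41 against 5.70, 9.16 and 13.7 CPM) and by -1.11 ± 0.48 at 15 min, and Tap1 by -1.21 ± 0.39 and -1.22 ± 0.43. Smaller differences were found for Psmb8 (-0.63 ± 0.18 and -0.59 ± 0.26 at 60 and 15 min), Tap2 (-0.43 ± 0.19 and -0.08 ± 0.22), Psmb9 (-0.33 ± 0.24 and -0.14 ± 0.52) and Nlrc5 (0.70 ± 0.85 and -1.13 ± 1.25). Past the threshold were 1 member higher and 6 lower at 60 min, with 60.4% of all genes called, and 2 lower at 15 min, with 45.6% called. That 15 min count was 1 without replicate 1 or replicate 4, 1 (Tapbp) with a block for the replicate number, and 0 in the home cage libraries alone. All 12 microglia markers fell in both sets, to sums of 87.3 to 463 CPM in purified libraries, while 4 and 5 of 12 endothelial markers rose at 15 and 60 min, and their part in the result was not tested.

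In Sst neurons the direction of several members rested on the libraries rich in microglia markers. With all libraries of the 60 min set, Psmb8 held 5.42, 9.53 and 55.9 CPM in 13 purified libraries against 2.85, 5.27 and 12.5 CPM in 13 lysates, a log2 difference of 1.51 ± 0.40. The 3 microglia-rich libraries held 46.3, 48.4 and 55.9 CPM and the other 10 purified libraries 5.42 to 16.2 CPM, and without those 3 the difference was 0.47 ± 0.24. H2-K1 went from 0.79 ± 0.32 to -0.01 ± 0.19, Psmb9 from 1.44 ± 0.44 to 0.20 ± 0.25, H2-D1 from 1.06 ± 0.29 to 0.42 ± 0.18, Tap1 from 0.85 ± 0.34 to 0.27 ± 0.29 and Irf1 from 0.66 ± 0.28 to 0.31 ± 0.27. Tap2 kept most of its difference, 1.18 ± 0.31 with and 0.81 ± 0.30 without them, where 12.1, 22.5 and 47.5 CPM in all purified libraries stood against 3.33, 8.88 and 24.9 CPM in lysates. B2m went the other way, -0.54 ± 0.24 with them and -0.90 ± 0.22 without, while Tapbp (0.51 ± 0.25) and Nlrc5 (0.48 ± 0.56) were not called. Of 10 members, 7 were called higher and 0 lower, with 59.4% of all genes called, and 2 were called without those libraries (Tap2 higher, B2m lower). No member was called without the 7 purified libraries of low own-class score or in the home cage libraries alone, and 2 were called without replicate 3. With the replicate number as a block 4 were called, Tap2, Psmb8 and H2-D1 higher and B2m lower. With DESeq2's size factors in place of TMM, which shifts the median of all genes by -0.14 log2 units, 4 members were called higher and 1, B2m, lower.

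At 15 min B2m, Psmb8 and H2-D1 were the members called higher in Sst with all libraries. B2m held 90.2, 234 and 669 CPM in 12 purified libraries against 115, 138 and 190 CPM in lysates, 1.14 ± 0.22 with all libraries and 0.55 ± 0.23 without the 4 microglia-rich ones. Psmb8 went from 0.99 ± 0.27 to 0.12 ± 0.24, H2-D1 from 0.52 ± 0.18 to 0.07 ± 0.17 and Psmb9 from 0.75 ± 0.33 to -0.38 ± 0.36, and H2-K1 from 0.36 ± 0.20 to -0.19 ± 0.20. Irf1 was lower in both (-0.54 ± 0.20 and -0.75 ± 0.25), and Tapbp was lower by -0.20 ± 0.14 and -0.41 ± 0.16. Tap1 differed by -0.84 ± 0.42, Tap2 by 0.02 ± 0.26 and Nlrc5 by -0.42 ± 1.10 with all libraries. The call was 3 higher and 1 lower with all libraries, with 44.5% of genes called, and 2 lower (Irf1 and Tapbp) without them. Without replicate 3 it was 2, and with the replicate number as a block it was 1, B2m.

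**Figure D2:**
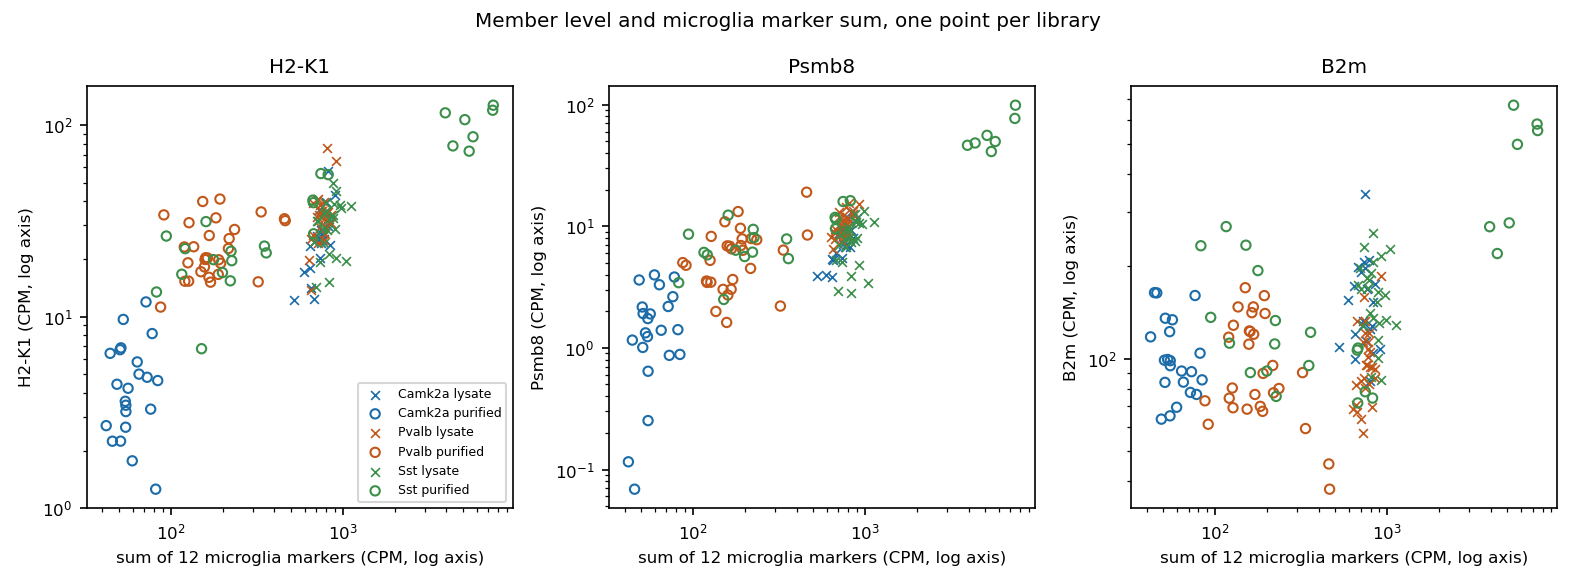
H2-K1, Psmb8 and B2m in CPM against the summed level of 12 microglia markers in CPM (both axes log), 1 point per library for 3 lines and 2 fractions. The 7 microglia-rich purified Sst libraries lie at the upper right in H2-K1 and Psmb8, and the purified Camk2a libraries at the lower left, while B2m in purified Camk2a libraries overlaps the lysates.

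The microglia-rich libraries held the highest levels of the heavy chains and of both immunoproteasome subunits. The 4 at 15 min held Psmb8 at 41.1 to 98.9 CPM, Psmb9 at 12.7 to 30.6 CPM, H2-K1 at 73.0 to 127 CPM, H2-D1 at 105 to 215 CPM and B2m at 499 to 669 CPM. Each of these ranges lay above every other purified Sst library of the set. The 3 at 60 min held B2m at 220 to 277 CPM, where lysates reached 256 CPM, and all 5 genes were again above every other purified library of the set. Nlrc5, the class I transactivator, was at 0 to 0.671 CPM in the 4 libraries at 15 min, where the 8 others held 0 to 1.79 CPM.

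In purified Camk2a RNA the immunoproteasome subunit Psmb8 was lower relative to its constitutive counterpart than in tissue (the plot of subunit ratios). Per kilobase, the median ratio of Psmb8 to Psmb5 was 0.0218 in Camk2a 60 min lysates (range 0.0139 to 0.0259) and 0.00176 in the purified libraries (0.000168 to 0.00360), which did not overlap. At 15 min the medians were 0.0227 and 0.00409, also without overlap (0.0144 to 0.0412 against 0.000127 to 0.0104). Pvalb purified medians were 0.00968 at 60 min and 0.00794 at 15 min against 0.0202 and 0.0201 in lysates, with overlap. Purified Sst libraries with an own-class score of 2 or more held 0.00779 (60 min) and 0.00761 (15 min), and microglia-rich ones 0.0483 and 0.0672, against lysate medians of 0.0181 and 0.0192. Those of score 2 or more also lay below the lysates without overlap at 60 min, 0.00603 to 0.0139 against 0.0156 to 0.0231. At 15 min they overlapped, 0.00482 to 0.0152 against 0.0140 to 0.0251. For Psmb9 over Psmb6, the pair of the caspase-like site, purified medians were 0.000719 and 0.000612 in Camk2a (60 and 15 min) against 0.00310 and 0.00255 in lysates. In Pvalb they were 0.00246 and 0.00200 against 0.00381 and 0.00305. Psmb10 over Psmb7, the pair of the trypsin-like site, had higher purified medians at 60 min, 1.65, 1.70 and 2.24 in Camk2a, Pvalb and Sst against 1.31, 1.39 and 1.08 in lysates. At 15 min its median was lower in purified Camk2a, 0.360 against 0.639, with overlap. It was higher there in purified Pvalb, 2.33 against 1.52, and Sst, 1.87 against 1.27, also with overlap. Psmb10 is also an immunoproteasome subunit, and its gene lies outside the MHC. The denominators moved as well, since Psmb5 and Psmb6 rose in the purified RNA of all 6 sets (Camk2a 60 min Psmb5 1.43 ± 0.12, edgeR adjusted p = 6.42e-10).

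**Figure D3:**
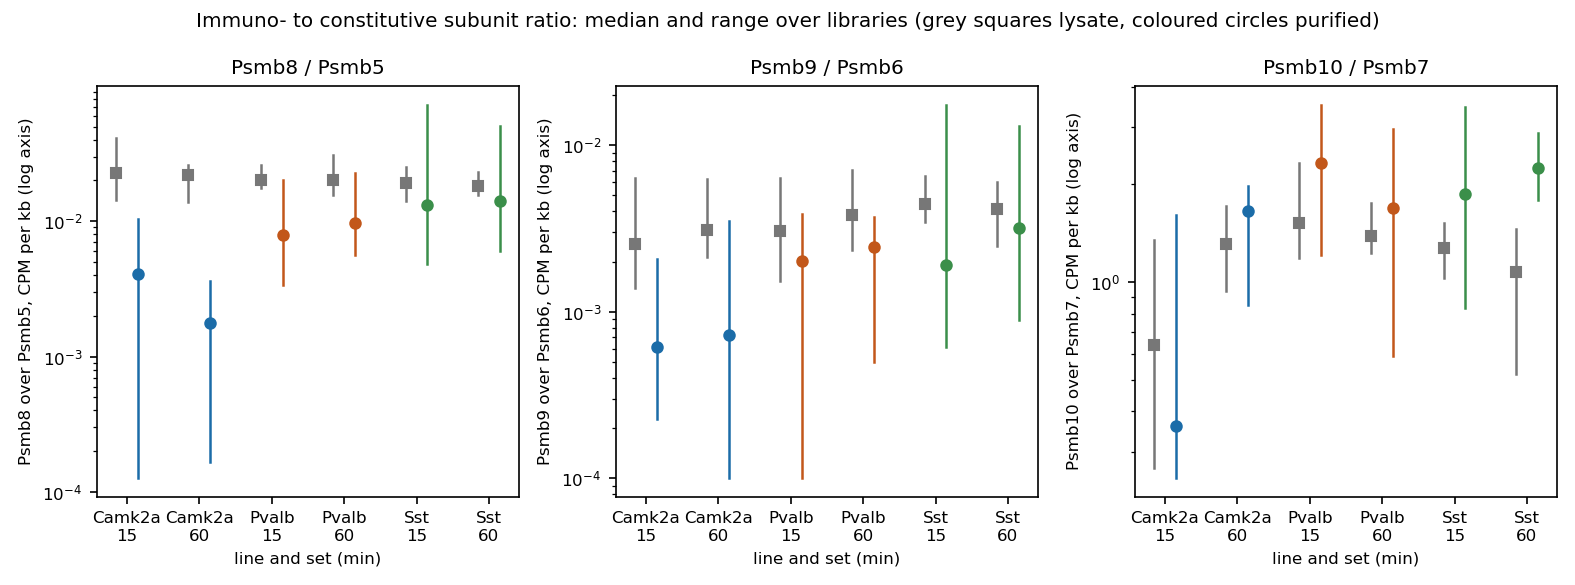
Ratio of each immunoproteasome subunit to its constitutive counterpart in CPM per kb (log axis), as median and range over the libraries of a line, set and fraction. Purified Camk2a libraries lie below the lysates for Psmb8 over Psmb5 without overlap, and lower ends at the foot of the Psmb9 over Psmb6 panel stand for libraries at 0.

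Between lines, at rest in the home cage, purified Camk2a RNA held the least H2-K1. In the 15 min set it held 5.80, 3.62 and 2.24 CPM in Camk2a, 39.9, 15.1, 18.2 and 19.8 CPM in Pvalb, and 16.6, 19.8, 6.80 and 22.6 CPM in Sst. The 60 min set gave 4.44, 4.64, 8.16 and 2.65 CPM in Camk2a, 16.0 to 41.1 CPM (median 20.05) in 6 Pvalb libraries, and 116, 21.5, 77.7, 21.9 and 16.97 CPM in Sst. Camk2a did not overlap with either interneuron line in either set. Pvalb was higher by 2.39 ± 0.49 and 2.01 ± 0.53 log2 units and Sst by 2.02 ± 0.48 and 3.18 ± 0.57 at 15 and 60 min, and by 1.81 ± 0.35 in Sst at 60 min without the 2 microglia-rich libraries. B2m, by contrast, differed by -0.36 ± 0.30 between Pvalb and Camk2a at 15 min and 0.83 ± 0.24 at 60 min. Line is confounded with the count table, so a difference between lines and one between tables cannot be told apart.

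The other members followed H2-K1 in part. Tap2 was higher in Pvalb and Sst than in Camk2a at 15 min, by 3.02 ± 0.64 and 2.16 ± 0.62, without overlap, and by 0.19 ± 0.36 and 1.64 ± 0.39 at 60 min. At 15 min Pvalb against Camk2a called 2 members (H2-K1, Tap2) of 9, with 18.7% of genes called, and Sst against Camk2a 3 (those and B2m, 1.01 ± 0.31), with 11.8% called. The latter was 0 without Camk2a replicate 2 or 3 and 1 without Camk2a replicate 1 or Sst replicate 3. H2-D1 differed by 0.76 ± 0.33 and 0.94 ± 0.33, Tapbp by 0.68 ± 0.32 and 0.70 ± 0.32, Psmb8 by 1.45 ± 0.70 and 1.43 ± 0.70, Psmb9 by 1.30 ± 0.99 and 0.35 ± 0.97, Tap1 by -1.40 ± 1.43 and -0.82 ± 1.43 and Irf1 by -0.17 ± 0.66 and -1.35 ± 0.66 in those comparisons, with Irf1 below every Camk2a library in Sst. Sst against Pvalb at 15 min called 0 genes (0%) with edgeR's quasi-likelihood test, where 1 member, B2m at 1.37 ± 0.28 with no overlap, was at an unadjusted p under 0.05, and DESeq2 called it. At that p were 1684 of 15013 genes, and DESeq2 called 349 genes. Leaving out Sst replicate 2 or 4 also called 1 member. The other members differed there by -1.18 ± 0.62 (Irf1) to 0.58 ± 1.34 (Tap1).

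At 60 min Pvalb against Camk2a called B2m and H2-K1, with 55.1% of genes called, and differed by 0.48 ± 0.41 for H2-D1, 0.14 ± 0.35 for Tapbp, 0.84 ± 0.64 for Psmb8, 1.07 ± 0.89 for Psmb9, 0.36 ± 0.70 for Tap1, -0.10 ± 0.46 for Irf1 and -0.24 ± 1.58 for Nlrc5. Sst against Camk2a called 7 higher, with 26.0% of genes called. They are H2-K1, H2-D1 (1.83 ± 0.44), Psmb8 (3.02 ± 0.72), Psmb9 (3.08 ± 0.99), Tap2, Tapbp (1.35 ± 0.37) and B2m (1.02 ± 0.25), while Tap1 (1.38 ± 0.74), Irf1 (1.27 ± 0.49) and Nlrc5 (0.56 ± 1.66) were not. Without the microglia-rich home cage replicates 1 and 3, 2 were called, H2-K1 and B2m (0.46 ± 0.16). Sst against Pvalb called 7 higher, with 46.1% of genes called, led by Psmb8 (2.18 ± 0.60), Psmb9 (2.02 ± 0.81), Tap2 (1.45 ± 0.34), Irf1 (1.36 ± 0.43), H2-D1 (1.35 ± 0.38), Tapbp (1.22 ± 0.32) and H2-K1 (1.16 ± 0.46). It called 0 without the microglia-rich libraries, where Psmb8 differed by 0.41 ± 0.51 and H2-K1 by -0.19 ± 0.33, and 4 without either Sst replicate 1 or replicate 3. B2m, Tap1 and Nlrc5 differed there by 0.19 ± 0.22, 1.02 ± 0.64 and 0.80 ± 1.47 with all libraries.

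After shock, members were higher in the purified Sst libraries of the 15 min set (the plot of purified libraries by condition). Psmb8 held 6.10, 6.35, 2.501 and 5.82 CPM in the home cage, 3.44, 11.4 and 12.3 CPM after the box and 8.61, 49.8, 41.1, 98.9 and 77.0 CPM after shock. H2-K1 held 16.6, 19.8, 6.80 and 22.6 CPM, 13.4, 27.0 and 31.3 CPM, and 26.3, 86.7, 73.0, 127 and 119 CPM in the same order. Shock replicate 1 was the lowest of its group in both and lay just above the home cage. Irf1 held 1.45, 2.07, 1.13 and 2.31 CPM in the home cage, 2.78, 11.9 and 4.68 CPM after the box and 8.92, 18.6, 11.2, 18.8 and 14.4 CPM after shock, where the home cage lay apart from both. Against the home cage, 6 of 9 members tested were called higher, with 1.21% of all genes called, which is a description only. They are Psmb9 (3.65 ± 0.75), Psmb8 (3.30 ± 0.60), Irf1 (2.94 ± 0.46), H2-K1 (2.30 ± 0.45), H2-D1 (1.98 ± 0.40) and Tapbp (1.40 ± 0.30), and Tap1 (2.27 ± 0.96), Tap2 (1.76 ± 0.57) and B2m (1.12 ± 0.49) were not called.

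Microglia and endothelial markers moved with it. All 12 microglia markers rose, C1qa, a complement gene, from a mean of 6.04 to 396 CPM (5.90 ± 1.02, edgeR's quasi-likelihood test, adjusted p = 0.0339), the summed list going from 116 to 177 CPM in the home cage to 94.2 to 7491 CPM after shock. Of 12 endothelial markers 1 rose, Cldn5, a tight-junction gene (2.24 ± 0.47, adjusted p = 0.0423), and the list's sum was 218 to 683 CPM in the home cage and 251 to 1630 CPM after shock. In the microglia sum shock replicate 1, at 94.2 CPM, was below every home cage library, and its Irf1 of 8.92 CPM was above all 4. Without the 4 microglia-rich libraries shock replicate 1 alone remained, a single sample assumed to vary like the other groups, and 0 members were called: Irf1 then differed by 2.29 ± 0.82, Psmb8 by 0.66 ± 0.78, H2-K1 by 0.62 ± 0.64, H2-D1 by 0.59 ± 0.57, Tapbp by 0.73 ± 0.54 and Psmb9 by 0.20 ± 1.42. With a score of microglia, endothelial and mural markers as a covariate 0 were called, and Irf1 differed by 2.13 ± 0.46 and Psmb8 by 1.03 ± 0.47. The count was also 0 without any 1 of home cage replicates 1, 2 or 3 or shock replicates 2, 4 or 5, and 2 without shock replicate 3. Psmb5, Psmb6, Psmb7 and Psmb10 did not pass the test in this comparison.

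**Figure D4:**
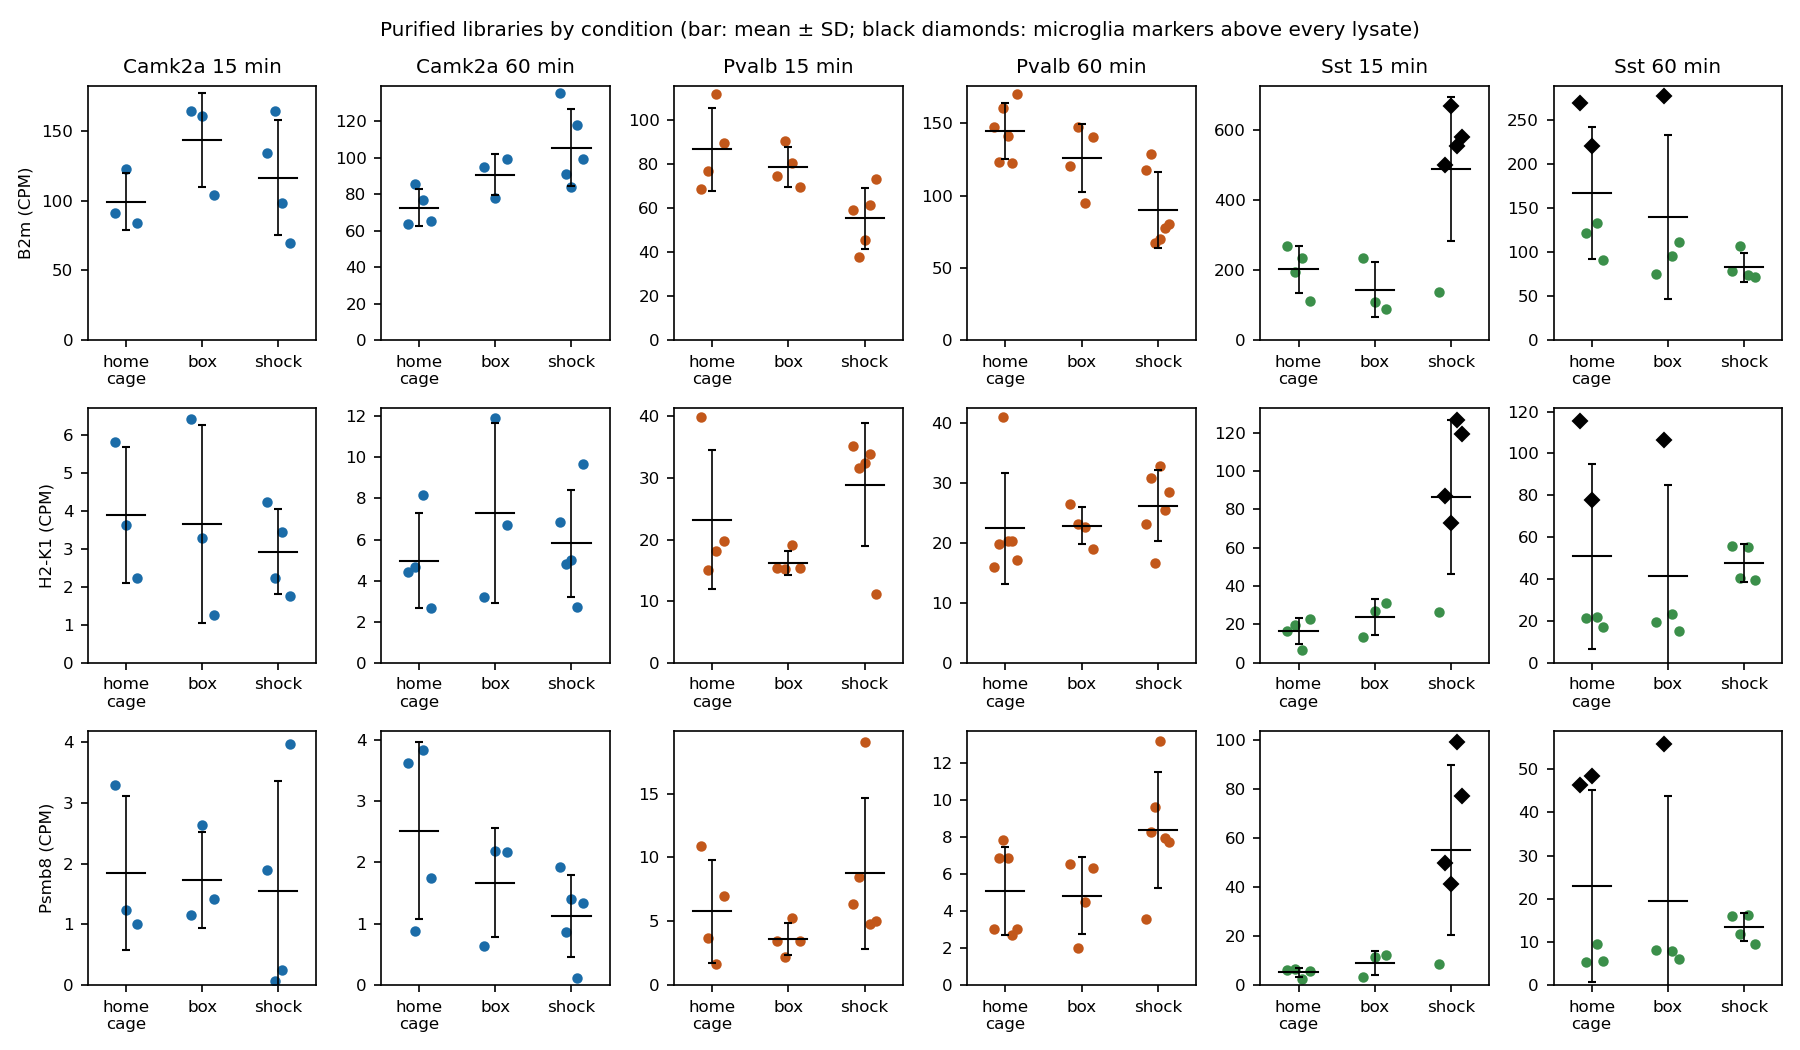
B2m, H2-K1 and Psmb8 in CPM in each purified library of the 6 sets by condition, with group mean and SD, and black diamonds for the 7 microglia-rich libraries. The shock group of Sst 15 min lies at 26.3 to 127 CPM of H2-K1, with 4 of 5 points as diamonds, and B2m in Pvalb 60 min is lowest in 4 of 6 shock libraries.

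The other comparisons of this Sst set called 0 members. Shock against box called 0 genes (0%) by edgeR. At an unadjusted p under 0.05 were 7 members and 1384 of all 16046 genes tested. DESeq2 called 6 members and 302 genes, and leaving out shock replicate 1 called 4 members. Psmb9 differed by 2.87 ± 0.81, Psmb8 by 2.67 ± 0.65, H2-K1 by 1.90 ± 0.49, B2m by 1.68 ± 0.55 and H2-D1 by 1.60 ± 0.44. Without the libraries of low own-class score, which leaves 1 shock and 2 box libraries, they differed by -0.40 ± 1.64, 0.13 ± 0.91, 0.22 ± 0.75, -0.34 ± 0.76 and 0.09 ± 0.67 in that order. Box against home cage called 0 genes (0%) by edgeR and 63 genes, 0 of them members, by DESeq2. At an unadjusted p under 0.05 were 681 of 16046 genes, 1 of them a member. That member was Irf1, the interferon-regulated factor, at 1.68 ± 0.47 with no overlap. Its highest box value, 11.9 CPM, is that of box replicate 2, whose own-class score was 0.22 and whose microglia sum was 677 CPM, against 82.6 and 160 CPM in the other box libraries. Without that library Irf1 differed by 1.10 ± 0.45. H2-K1, H2-D1 and B2m differed by 0.40 ± 0.47, 0.38 ± 0.43 and -0.56 ± 0.55 with all libraries and by 0.44 ± 0.55, 0.53 ± 0.49 and -0.27 ± 0.60 without it.

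In purified Pvalb libraries of the 60 min set B2m was lower after shock. It held 148, 123, 161, 141, 123 and 170 CPM in the home cage (lowest 123, highest 170), 120, 148, 95.2 and 140 CPM after the box and 118, 129, 67.5, 70.0, 77.5 and 80.0 CPM after shock. Shock replicate 1 and replicates 3 to 6 lay below every home cage library, replicate 1 by a small margin, and replicate 2 lay within the home cage's range. The log2 difference was -0.69 ± 0.18, the only one of 10 members called, with 35.0% of all genes called. H2-D1 and H2-K1 differed by 0.32 ± 0.18 and 0.22 ± 0.22, Psmb8 by 0.73 ± 0.36 and Tap2 by 0.87 ± 0.36. Leaving out shock replicate 1 called 3 members, and leaving out shock replicate 2 or home cage replicate 4 called 2. With the marker score as a covariate 3 were called, B2m (-0.79 ± 0.16), Psmb8 (1.0 ± 0.27) and Tap2 (0.92 ± 0.31). Of the other catalytic subunits, Psmb10 rose by 1.39 ± 0.22 (adjusted p = 0.000594), Psmb5 by 1.16 ± 0.20 (adjusted p = 0.000665) and Psmb6 by 0.77 ± 0.16 (adjusted p = 0.00171), by edgeR with Benjamini-Hochberg adjustment. Of the microglia markers 3 rose and 1 fell, with sums of 120 to 235 CPM after shock and 150 to 193 CPM in the home cage, and of the pyramidal markers 5 rose and 2 fell, with sums of 2134 to 4118 and 1788 to 2385 CPM. Their part in the result was not tested.

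B2m went in different directions in the other shock comparisons. In Pvalb at 15 min it held 68.6, 76.5, 112 and 89.6 CPM in the home cage and 59.3, 37.6, 45.5, 61.2 and 73.0 CPM after shock, -0.73 ± 0.23 and not called. Shock replicates 1, 2 and 3 had microglia sums of 335, 463 and 458 CPM and own-class scores of 3.18, 2.17 and 2.22. Replicates 4 and 5 had 91.1 and 87.3 CPM and 5.39 and 5.34, and the home cage 153 to 190 CPM and 4.15 to 4.51. The part of these markers in the result was not tested. In Camk2a at 60 min B2m held 63.6, 85.4, 76.6 and 65.2 CPM against 136, 90.8, 83.9, 118 and 99.5 CPM, higher by 0.59 ± 0.18 with a slight overlap. It was called by DESeq2, as were 2029 of 14673 genes, and not by edgeR, where 2.30% of genes were called. Leaving out box replicate 2 or shock replicate 3 called 1 member. H2-D1 and H2-K1 differed there by -0.24 ± 0.19 and 0.26 ± 0.45. In Sst at 60 min B2m held 269, 122, 220, 133 and 91.2 CPM in the home cage and 78.1, 107, 74.5 and 71.8 CPM after shock, -1.07 ± 0.37. It was called by DESeq2, as were 1922 of 16301 genes, and not by edgeR, with 4.49% of genes called by edgeR. The home cage values of 269 and 220 CPM are those of the microglia-rich replicates 1 and 3, and without the microglia-rich libraries B2m differed by -0.61 ± 0.23 and was not called. The differences between these responses were not tested.

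The Sst 60 min shock libraries, all of lysate-like own-class score, are compared with groups that hold the microglia-rich libraries. H2-K1 held 55.8, 40.5, 55.1 and 39.3 CPM after shock against 116, 21.5, 77.7, 21.9 and 16.97 CPM in the home cage and 19.6, 107, 23.3 and 15.4 CPM after the box. With all libraries it differed by -0.13 ± 0.62 from the home cage and 0.11 ± 0.66 from the box, and without the microglia-rich libraries by 1.11 ± 0.23 and 1.14 ± 0.23, the 1 member called in each. H2-D1 differed from the home cage by -0.83 ± 0.54 and from the box by -0.59 ± 0.56 with all libraries, and by 0.22 ± 0.21 and 0.17 ± 0.21 without the microglia-rich ones. Shock against box called 0 members, with 8.18% of genes called, 1 member (B2m, -0.86 ± 0.39, and -0.34 ± 0.23 without the microglia-rich libraries) at an unadjusted p under 0.05 and 0 by DESeq2. At that p were 4127 of 16301 genes, and DESeq2 called 2548 genes. With the marker score as a covariate B2m was called in both, at -1.03 ± 0.19 and -0.94 ± 0.20. Box against home cage called 0 genes (0%), 0 members at an unadjusted p under 0.05 and 0 by DESeq2, with Nlrc5 at -1.32 ± 1.05, B2m at -0.21 ± 0.37, H2-D1 at -0.24 ± 0.53 and H2-K1 at -0.25 ± 0.63, and without the microglia-rich libraries at -1.43 ± 1.43, -0.27 ± 0.25, 0.05 ± 0.22 and -0.03 ± 0.24.

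In the remaining purified comparisons no member passed the threshold, and neither did any other gene (0%) by edgeR. In Camk2a at 15 min 0 members were at an unadjusted p under 0.05 in any comparison and DESeq2 called 0. The member of smallest p was H2-D1 for shock against home cage (0.35 ± 0.30), B2m for box against home cage (0.56 ± 0.30) and Psmb9 for shock against box (2.43 ± 1.36), where Psmb9 held 0.252, 0.139 and 0.153 CPM after the box and 0.640, 0.551, 0.673 and 2.32 CPM after shock. Its groups did not overlap, at levels under 3 CPM. In Camk2a at 60 min box against home cage and shock against box had 0 at an unadjusted p under 0.05 and 0 by DESeq2, with B2m at 0.32 ± 0.20 and 0.27 ± 0.20. In Pvalb at 15 min B2m differed by -0.57 ± 0.23 between shock and box and Tap1 by 1.67 ± 1.07 between box and home cage, with 2 and 0 members at an unadjusted p under 0.05 and 0 by DESeq2, and shock against home cage had 1 and 0. At that p were 2411, 260 and 2413 of 15484 genes in the same order. Shock replicates 1, 2 and 3 of this set are those of raised microglia sums described above. In Pvalb at 60 min Tap2 differed by 0.71 ± 0.39 between box and home cage and B2m by -0.47 ± 0.19 between shock and box, with 0 and 1 members at an unadjusted p under 0.05 and 0 by DESeq2. At that p were 1829 and 3306 of 16135 genes. With the marker score as a covariate, shock against box there called 2, B2m (-0.56 ± 0.18) and Psmb8 (1.14 ± 0.30).

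In whole tissue no member was called. Over the lysates of all lines, fitted with line as a covariate, 0 of 10 members were called in any of 6 condition comparisons, 0 were at an unadjusted p under 0.05 and DESeq2 called 0. Shock against home cage at 15 min, over 14 and 10 lysates, gave -0.02 ± 0.15 for B2m, 0.10 ± 0.15 for H2-D1, 0.15 ± 0.13 for H2-K1 and 0.22 ± 0.15 for Irf1, with 0.128% of genes called. Box against home cage gave 0.17 ± 0.11 for Tapbp with 0.0128% called, and shock against box 0.26 ± 0.16 for Irf1 with 0% called. At 60 min, with 0% of genes called throughout, shock against home cage gave -0.09 ± 0.17 for B2m, -0.13 ± 0.14 for H2-D1 and -0.09 ± 0.14 for H2-K1, box against home cage 0.14 ± 0.15 for H2-K1 and shock against box -0.23 ± 0.15 for H2-K1. Microglia sums of the Sst lysates were 708 to 1121 CPM (15 min) and 675 to 1037 CPM (60 min). Of the pathway genes described next, 1 rose in lysates after shock at 15 min, Nfkbia, the inhibitor of NF-kappaB (0.54 ± 0.09, edgeR adjusted p = 0.00284).

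Among other genes of the pathway, whose lists were chosen with earlier results of these data known, subunits of the proteasome rose and interferon-induced genes fell in purified Camk2a RNA. In the 15 and 60 min sets, the share of all genes that rose against the lysate was 22.9% and 22.2% in Camk2a, 21.3% and 28.0% in Pvalb and 23.6% and 31.2% in Sst, and the share that fell was 27.8% and 35.3%, 24.3% and 32.4%, and 21.0% and 28.2%, and the counts that follow stand beside these. Against the lysate, the constitutive catalytic subunits rose in every set (3 of 3), and so did Psmb10, the activator genes Psme1 and Psme2 and the assembly factor Pomp (4 of 4 in every set but Pvalb 15 min, with 3 of 4). Pomp rose by 1.29 ± 0.13 in Camk2a 60 min (adjusted p = 9.62e-09) and Psmb10 by 1.10 ± 0.14 (adjusted p = 4.5e-07). Of the other class I heavy chains, 5 of 9 tested fell in Camk2a at 15 min and 6 of 11 at 60 min, with 0 risen and a median of -1.60 and -1.96 against -0.14 and -0.26 over all genes. The share called in either direction was near that of all genes (50.7% and 57.5%). The one of smallest p at 60 min was Fcgrt, the neonatal Fc receptor (-2.44 ± 0.29 at 60 min, adjusted p = 1.57e-07). In Pvalb 0 rose and 2 of 13 fell at 15 min, and 1 rose and 5 of 12 fell at 60 min. The riser was H2-M3, which presents formylated peptides, by 1.03 ± 0.18 (adjusted p = 9.27e-06). In Sst 2 of 12 rose and 0 fell at 15 min, and 3 of 11 rose and 1 fell at 60 min. Without the microglia-rich libraries 1 of 14 rose and 3 fell at 15 min, and 1 of 10 rose and 2 fell at 60 min. The subunit and assembly counts in Sst were the same with and without those libraries.

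Genes of peptide loading and trimming, a list that holds both general chaperones of the endoplasmic reticulum and the trimming peptidases, were mixed, with 1 of 10 risen and 3 fallen in both Camk2a sets, 5 and 1 in Pvalb 15 min, 5 and 2 in Pvalb 60 min, 5 and 1 in Sst 15 min and 4 and 4 in Sst 60 min (3 and 1, and 4 and 4, without the microglia-rich libraries). Calr, the chaperone calreticulin, rose in Camk2a at 60 min by 0.33 ± 0.11 (adjusted p = 0.0107) where Erap1, the trimming peptidase, fell by 1.52 ± 0.37 (adjusted p = 0.0014). Of the interferon-induced genes, 16 of 23 tested fell in Camk2a at 15 min and 21 of 25 at 60 min, with 0 risen, where 27.8% and 35.3% of all genes fell, and their median was -2.59 and -2.74. Ifitm3, a membrane protein that blocks virus entry, fell there by 2.60 ± 0.28 at 60 min (adjusted p = 3.64e-08). In Pvalb 2 rose and 6 fell of 25 at 15 min and 7 rose and 5 fell at 60 min. Ifitm3 there rose by 1.14 ± 0.13 (adjusted p = 2.35e-09) and Ifit2, which binds viral RNA, by 1.98 ± 0.18 (adjusted p = 2.07e-11) at 60 min. In Sst 8 rose and 2 fell at 15 min, and 3 rose and 9 fell at 60 min, of 25, and without the microglia-rich libraries 5 rose and 4 fell, and 1 rose and 12 fell.

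Receptors and signalling genes of interferon were mixed, with 2 risen and 6 fallen of 16 (Camk2a 15 min), 1 and 7 (Camk2a 60 min), 3 and 6 (Pvalb 15 min) and 2 and 8 (Pvalb 60 min), against 2 and 2 and 6 and 2 in Sst at 15 and 60 min. Without the microglia-rich Sst libraries these were 3 and 3 and 5 and 2. The receptor chain Ifngr1 fell by 1.91 ± 0.22 in Camk2a 60 min (adjusted p = 8.17e-08) while its partner Ifngr2 rose by 0.42 ± 0.08 (adjusted p = 0.000145). Socs1, a brake on that signal, rose in Sst 60 min by 1.81 ± 0.29 (adjusted p = 2.21e-05), and by 1.78 ± 0.31 without the microglia-rich libraries (adjusted p = 0.000137). Of 12 regulators of class I promoters, 3 rose and 3 fell in both Camk2a sets, 0 and 2 in Pvalb 15 min, 3 and 4 in Pvalb 60 min, 3 and 2 in Sst 15 min and 6 and 3 in Sst 60 min, and 1 and 1 and 5 and 3 in Sst without the microglia-rich libraries. Rela, an NF-kappaB subunit, fell by 0.99 ± 0.19 in Camk2a 60 min (adjusted p = 0.000133) and Rfxap, of the complex that binds the X box, rose by 0.64 ± 0.07 (adjusted p = 2.75e-08). MHC class II genes, which microglia use, fell in Camk2a (3 of 6 at 15 min, 5 of 7 at 60 min, 1 risen in each, H2-DMa) and in Pvalb (4 and 7 of 7, 0 risen), while 0 of 7 passed in Sst 15 min and 6 of 7 rose in Sst 60 min with all libraries. Without the microglia-rich libraries 3 of 7 fell at 15 min and 1 of 7, H2-DMa, rose at 60 min, and without the libraries of low own-class score 4 fell at 15 min and 0 passed at 60 min. Cd74, the invariant chain, differed in Sst 60 min by 2.17 ± 0.67 (adjusted p = 0.00792) with all libraries and by 0.17 ± 0.42 (adjusted p = 0.748) without the microglia-rich ones. Of the class I receptors on immune cells, 0 rose in any set and 2 of 2 fell in Camk2a 60 min, 2 of 5 in Pvalb 15 min, 2 of 3 in Pvalb 60 min, 3 of 5 in Sst 15 min and 0 of 6 in Sst 60 min (3 of 6 and 2 of 5 without the microglia-rich libraries), Pirb among them (-5.27 ± 1.28 in Camk2a 60 min, adjusted p = 0.00203).

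After shock, pathway genes passed the test in Sst at 15 min, Pvalb at 60 min, Camk2a at 60 min and Sst at 60 min. In Sst at 15 min, where 1.21% of all genes were called, 3 of 13 other class I heavy chains rose, Fcgrt (2.72 ± 0.45, adjusted p = 0.0339), H2-T23 (2.04 ± 0.45, adjusted p = 0.0437) and Hfe (2.28 ± 0.51, adjusted p = 0.0458), with 2 of 25 interferon-induced genes, Bst2 (2.96 ± 0.53, adjusted p = 0.0339) and Lgals3bp (2.21 ± 0.46, adjusted p = 0.0423). Of class II genes H2-Eb1 (3.53 ± 0.73, adjusted p = 0.0423) and H2-Aa (5.0 ± 1.08, adjusted p = 0.0437) rose, and of regulators Rela (2.06 ± 0.38, adjusted p = 0.0353). These are the libraries whose microglia markers rose. Without the 4 microglia-rich ones, with shock replicate 1 alone left, 0 genes of these lists were called, and Fcgrt differed by 0.95 ± 0.59, H2-T23 by 0.56 ± 0.72, Hfe by -0.24 ± 0.75, Bst2 by 1.13 ± 0.81, Lgals3bp by 1.14 ± 0.75, H2-Eb1 by 0.57 ± 1.17, H2-Aa by 0.40 ± 1.84 and Rela by 1.39 ± 0.63.

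In Pvalb at 60 min, where 19.7% of all genes rose and 15.3% fell after shock, 3 of 11 other heavy chains rose and 2 fell, Mr1, which presents vitamin metabolites, falling by 1.43 ± 0.31 (adjusted p = 0.00241) and H2-T23 rising by 0.97 ± 0.29 (adjusted p = 0.0154). Of the loading genes 1 of 10 rose and 3 fell, Pdia3, a chaperone of the peptide-loading complex, by 0.82 ± 0.18 (adjusted p = 0.00236). Of the regulators 5 of 12 rose and 2 fell, of the interferon-induced genes 0 of 25 rose and 1 fell, and of the interferon receptors and signalling genes 0 of 16 rose and 1 fell. In Camk2a at 60 min H2-T23 fell by 1.37 ± 0.35 and Pdia3 rose by 0.77 ± 0.20 (both adjusted p = 0.0496).

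In Sst at 60 min Pomp fell by 0.81 ± 0.16 (adjusted p = 0.0165) and Nfkbia rose by 1.11 ± 0.27 (adjusted p = 0.0393) against the home cage with all libraries. Without the microglia-rich libraries 5 of 7 class II genes, 3 of 10 other heavy chains and 5 of 25 interferon-induced genes rose there and 2 interferon-induced genes fell, with Cd74 at 2.45 ± 0.60 (adjusted p = 0.0322) and Fcgrt at 1.69 ± 0.27 (adjusted p = 0.00894). The share of all genes called in that fit is not given, so nothing is read from these counts. The fit sets shock libraries of own-class score -0.47 to 0.11 against home cage libraries of 3.03 to 3.94. The 4 shock libraries held microglia sums of 670 to 822 CPM and the 3 home cage libraries kept 200 to 359 CPM, and the part of these markers in the result was not tested.

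Over the 36 group means of log2 CPM, the genes closest to the mean profile of 9 members (Nlrc5 was not tested in every table) were Ctsd (r = 0.975), C1qa (0.971), C1qb (0.963), Cst3 (0.962) and Laptm5 (0.960), of 15048 genes compared. These are lysosomal, complement and protease-inhibitor genes. C1qa and C1qb are on the microglia marker list used here, as are C1qc, Tmem119 and Trem2 among the 20 closest genes, and the points share libraries, depth and composition across genes, so r is a description without a p. The 36 groups include those that hold the microglia-rich Sst libraries, and no r without those libraries is given. Each member's own correlation with the mean of the others ran from 0.945 (Tapbp), 0.926 (H2-K1), 0.924 (H2-D1), 0.911 (Psmb8), 0.861 (Psmb9), 0.823 (Tap2), 0.774 (Irf1) and 0.596 (Tap1) down to 0.260 for B2m. B2m, the partner of every class I heavy chain, had the lowest of the 9.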

How the data were processed

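Polyadenylated RNA of dorsal hippocampus was sequenced from TRAP-purified ribosomes and from lysates, with Nextera XT libraries, per the labels' protocols. The deposited values are raw counts per gene in 6 tables, 1 for each line and time set. The submitters' processing notes name STAR 2.7.7a, featureCounts, DESeq2 and GRCm38, and the handling of reads that fit several genes and the annotation release are not given in the sources used here. Of 153 labelled samples, 151 count columns were used, 3 of them matched to a group but to no single sample. Nothing says that replicates came from separate animals beyond their being called biological replicates, so errors may hold technical spread. From the counts, CPM was computed as counts per 1000000 of each library's total, with log2 values using a prior count of 2. Comparisons used edgeR 4.0.16 in R 4.3.3 (TMM, filterByExpr, quasi-likelihood test) on all genes of the libraries compared, with Benjamini-Hochberg adjusted p under 0.05 as called, and the pipeline was tested on simulated data. A count of 0 allows up to 3 counts. Fold changes rest on TMM scaling, so they can differ from the CPM values printed beside them. Lysate comparisons had line as a covariate. Alternatives were DESeq2 1.42.0, its size factors, other filters, a replicate block, marker covariates, and leaving out libraries. Microglia-rich libraries and the deepest Sst libraries (total counts over 250000000) were chosen to be left out after seeing the data. No 2 libraries of the same group agreed within sampling noise (lowest reduced chi-square 20.7 over 257 pairs). Libraries of different groups were not compared in this way. The members and all gene lists were chosen with earlier results of these data known. All members are named; of other lists, up to 4 genes past the threshold with the smallest p in a comparison, plus further genes picked after their values were seen. Promoter sequences are from RefSeq (GRCm38.p6).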

Additional observations from a re-analysis of the deposited data

Results flagged for a closer look

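In groups of 4 to 10 libraries, the highest or lowest library was set against the rest by Dixon's test. Of 268 combinations of member and group, 41 had such a library, where chance alone gives about 1 in 20. All values are CPM of the library named, and 6 of the 41 are in microglia-rich libraries.

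H2-K1 was out of range in 8 groups. In Pvalb at 15 min it was low at 13.7 in lysate box replicate 2 and 11.2 in purified shock replicate 5, where the other 4 shock libraries held 31.7 to 35.2, and high at 32.4 in lysate shock replicate 4 and 19.1 in purified box replicate 3. In Pvalb at 60 min it was high at 76.2 in lysate box replicate 2, 65.0 in lysate home cage replicate 3 and 41.1 in purified home cage replicate 4. In Sst at 60 min the microglia-rich box replicate 2 held 106.6. H2-D1, the other heavy chain, was high at 74.4 in Camk2a 15 min lysate shock replicate 2, 64.1 in Pvalb 15 min purified shock replicate 4, 109.1 in Pvalb 60 min lysate home cage replicate 3 and 192.6 in that Sst box replicate 2. B2m was high once, at 191.0 in Camk2a 60 min lysate shock replicate 2.

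Of the loading genes, Tap1 was high at 8.40 in Camk2a 15 min purified shock replicate 4, 4.45 in Camk2a 60 min purified shock replicate 2, 7.34 in Pvalb 15 min lysate box replicate 1 and 7.66 in Sst 60 min purified box replicate 2. Tap2 was high at 29.2 in Camk2a 60 min lysate home cage replicate 3 and 16.5 in Camk2a 60 min purified shock replicate 3, and low at 13.0 in Pvalb 15 min purified shock replicate 1. Tapbp was low at 40.8 in Pvalb 15 min lysate box replicate 2 and high at 25.4 in Sst 15 min purified home cage replicate 4.

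Psmb8 was high at 11.7 in Camk2a 60 min lysate shock replicate 1, 19.1 in Pvalb 15 min purified shock replicate 3 and 55.9 in Sst 60 min purified box replicate 2, and low at 2.501 in Sst 15 min purified home cage replicate 3. Psmb9 was high at 2.32 in Camk2a 15 min purified shock replicate 4, 5.82 in Camk2a 60 min lysate shock replicate 1, 3.64 in Sst 15 min lysate shock replicate 1 and 15.7 in Sst 60 min purified box replicate 2.

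Nlrc5, near 0 in most libraries, was high in 11 groups. In some of them, such as the Camk2a 15 min shock lysates, every other library was at 0, where any count stands out. Camk2a lysates held 0.396 in 15 min shock replicate 3, 1.17 in 60 min home cage replicate 4 and 1.76 in 60 min shock replicate 5, and purified 60 min home cage replicate 2 held 1.10. Pvalb lysates held 0.377 in 15 min shock replicate 3 and 0.977 in 60 min home cage replicate 1, and purified libraries 0.109 in 15 min home cage replicate 3 and 1.65 in 60 min shock replicate 4. Sst at 15 min held 1.196 in lysate shock replicate 3, 1.79 in purified home cage replicate 4 and 0.671 in purified shock replicate 4.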

How the results depend on the processing

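Of 3218 alternative values for 201 member fold changes, 3125 moved by less than the replicate SD, 85 moved by more and 8 changed sign. Of 597 alternative counts of members called in 36 comparisons, 540 were within 1.5 times the count given, and in 20 comparisons all were. The cause of the others was not tested. Except for DESeq2, the share of all genes called in these alternatives is not given. A change in members called therefore cannot be told apart from a change over all genes.

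Against the lysate, home cage libraries alone called 2 members in Camk2a 15 min, 3 in Camk2a 60 min, 0 in Pvalb 15 min, 2 in Sst 15 min and 0 in Sst 60 min, with fewer samples. In home cage libraries H2-D1 was -0.35 and Psmb8 -0.56 in Sst 15 min. Without libraries of low own-class score the count was 0 in Sst 60 min, with H2-K1 at -0.35, Tap1 at -0.010 and Psmb9 at -0.15, 0 in Sst 15 min shock against home cage, 2 in Sst against Camk2a at 60 min and 0 in Sst against Pvalb at 60 min, with H2-K1 at -0.19. Without microglia-rich libraries, an alternative chosen after seeing the data, it was 2 in both Sst sets against the lysate (H2-K1 -0.0079 at 60 min), 0 in Sst 15 min shock against home cage, 1 in Sst 60 min shock against home cage and against box, 2 in Sst against Camk2a and 0 in Sst against Pvalb at 60 min (H2-K1 -0.19). With a covariate for non-neuronal markers it was 3 and 2 in Pvalb 60 min shock against home cage and box, 0 in Sst 15 min shock against home cage, and 1 in Sst 60 min shock against each control. DESeq2 called 1 in Camk2a 60 min and in Sst 60 min shock against home cage, 6 in Sst 15 min shock against box and 1 in Sst against Pvalb at 15 min. Of all genes it called 2029, 1922, 302 and 349 in that order.

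The labels name a lysate and a purified fraction of each number without saying that both came from 1 animal. Deviations of same-numbered fractions correlated above r = 0.1 in 9 of 10 pairs in Camk2a 15 min, 9 of 11 in Pvalb 15 min, 4 of 12 in Camk2a 60 min, 5 of 14 in Pvalb 60 min, 5 of 12 in Sst 15 min and 5 of 13 in Sst 60 min, so whether the numbers pair the fractions is not settled. With the replicate block the count was 1 in Pvalb 15 min, 1 in Sst 15 min and 4 in Sst 60 min against the lysate, 0 in Sst 15 min shock against home cage, 1 in Sst against Camk2a at 15 min and 0 in Sst against Pvalb at 60 min.

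Leaving out 1 replicate gave 3 to 7 members called in Camk2a 15 min, 7 to 8 in Camk2a 60 min, 1 to 3 in Pvalb 15 min, 5 to 7 in Pvalb 60 min, 2 to 5 in Sst 15 min and 2 to 8 in Sst 60 min against the lysate. It gave 0 to 1 in Camk2a 60 min, 1 to 3 in Pvalb 60 min and 0 to 6 in Sst 15 min shock against home cage, and 0 to 4 in Sst 15 min shock against box. For lines it gave 2 to 2 (Pvalb against Camk2a), 0 to 2 (Sst against Camk2a) and 0 to 1 (Sst against Pvalb) at 15 min, and 2 to 3, 6 to 8 and 4 to 7 at 60 min. In the other comparisons it gave 0. Nlrc5, Psmb9 and Tap1 are the members whose low counts limit them most.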
